A study of Fagopyrum tataricum with 9 samples.

Results

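On chromosome 6 of Tartary buckwheat (Fagopyrum tataricum), 5 short genes of antimicrobial defence lie within 78.6 kb of each other. They held at most 0.057% of a library's counts in green fruit, and at initial maturity they were among the most abundant transcripts of the seed. The genes were picked as those whose best Swiss-Prot match is antimicrobial peptide 1 or 2 of common buckwheat (Fagopyrum esculentum), together with a neighbouring short gene that matches an endochitinase of common bean (Phaseolus vulgaris). They are 5 of the 33931 genes in the deposited tables. They were chosen by name and position, and also selected on their measured counts and FPKM, with a higher level at discoloration than in green fruit already known. Values that compare either later stage with green fruit are therefore given as a description, without a test.

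Antimicrobial peptides 1 and 2 of buckwheat are small, cysteine-rich seed peptides of the hevein type. A hevein domain is a compact fold, held together by disulfide bridges, that binds chitin, the polymer of fungal cell walls and insect cuticle. The buckwheat peptides are known to inhibit the growth of fungi and bacteria in culture. Plant endochitinases cut chitin chains, and many of them carry a hevein domain in front of the catalytic domain. Such proteins are part of the stored defence of many dry seeds.

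RNA was sequenced from seeds of MIQIAO 1, a Tartary buckwheat variety grown in the field, with no treatment and no other genotype. Green fruit, discoloration and initial maturity are the submitters' names for its 3 stages, each with 3 libraries. Sampling was at 13, 19 and 25 days after flowering, and which day belongs to which named stage is left unsaid. One individual gave seeds of every stage and the replicates were plants, but whether a library number marks a plant is unstated, so p-values measure only the spread between these libraries. A seed holds several tissues, and in such bulk RNA more cells of a type that expresses a gene and more RNA per cell cannot be told apart.

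Each library held 21585045 to 26777643 counts. Within each stage 1 library stood apart from 2 closely similar ones: green fruit library 1, discoloration library 1 and initial maturity library 2. Chi-square per degree of freedom over all genes was 2.56, 1.98 and 3.54 between the similar libraries of the 3 stages in order. With the library apart it was 42.5 to 255. Why the pairs are so close is not given, so n = 3 below counts libraries and may overstate the independent samples. Embryo and endosperm markers (16 genes of storage globulins, vicilins, oleosins and 2S albumins, all detected in every library) had a summed FPKM, a read density per base of gene and per read sequenced, of 59351, 21653 and 22165 in green fruit libraries 1, 2 and 3. The sum was 150866 to 153283 at discoloration and 173436, 126510 and 175367 in initial maturity libraries 1, 2 and 3. Hull and seed coat markers were 97 genes matching laccases, transparent testa proteins or some cellulose synthases, 49 to 76 detected per library. They summed to 495, 1460 and 1496 in green fruit, 464 to 568 at discoloration and 354 to 386 at initial maturity. In the edgeR fit described below, 13 of 53 tested were called higher and 18 lower at discoloration against green fruit. At initial maturity against discoloration 5 and 18 were. Of all genes, 19.5% and 19.9%, then 16% and 20.4%, were called. FPKM carries no correction for composition, whose part in these sums was not tested. These sums moved with some of the values below, and their part in those values was not tested.

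The genes are named here by their match and, for the 3 that match antimicrobial peptide 1, by a letter in chromosome order. The endochitinase-like gene (FtPinG0008881000.01) lies first, at 45187627 to 45187921 on the minus strand. AMP1a (FtPinG0004979700.01) follows 48.2 kb further on, at 45236072 to 45236497 on the plus strand. AMP2 (FtPinG0004980000.01) lies at 45244570 to 45245068 on the minus strand, AMP1b (FtPinG0004980500.01) at 45253326 to 45253743 on the plus strand and AMP1c (FtPinG0004981100.01) at 45265800 to 45266210 on the plus strand. The gaps between the antimicrobial peptide genes were 8.1, 8.3 and 12.1 kb. Positions come from the deposited gene descriptions. Their genome build is not given in the sources used, and exons and UTRs are not marked there.

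All 5 carry the annotation term chitin binding, which 32 gene models of the whole table carry. The 4 antimicrobial peptide genes are all of the genes in the table with that match. The matches are of unequal strength, with E-values of 2.57e-16 for AMP1b, 7.62e-08 for AMP2, 1.19e-06 for AMP1a and 6.74e-06 for AMP1c, and 3.40e-12 for the endochitinase-like gene. The endochitinase-like model is 295 bases long, against gene models of 405 to 499 bases for the peptides. A class I endochitinase with its catalytic domain is coded by a far longer sequence than that. Whether reads that fit several of these copies were counted once, more than once or not at all is not given by the labels or headers, and the library kit does not mark the strand. Values of single copies are uncertain to that extent.

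The 5 genes together took a growing share of all counts. Their share was 0.057%, 0.00584% and 0.000718% in green fruit libraries 1, 2 and 3 (95% Wilson intervals 0.056 to 0.0579%, 0.00556 to 0.00614% and 0.000614 to 0.00084%). It was 3.17%, 2.6% and 2.68% at discoloration and 8.92%, 15.5% and 8.48% at initial maturity, with intervals no wider than 0.014 percentage points to either side. The 3 stages did not overlap. Means were 0.0212 ± 0.0311%, 2.82 ± 0.309% and 11 ± 3.93% (SD, n = 3 each). Initial maturity library 2, the one with the highest share, is the library with the lowest sum of embryo and endosperm markers of its stage.

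**Figure D1:**
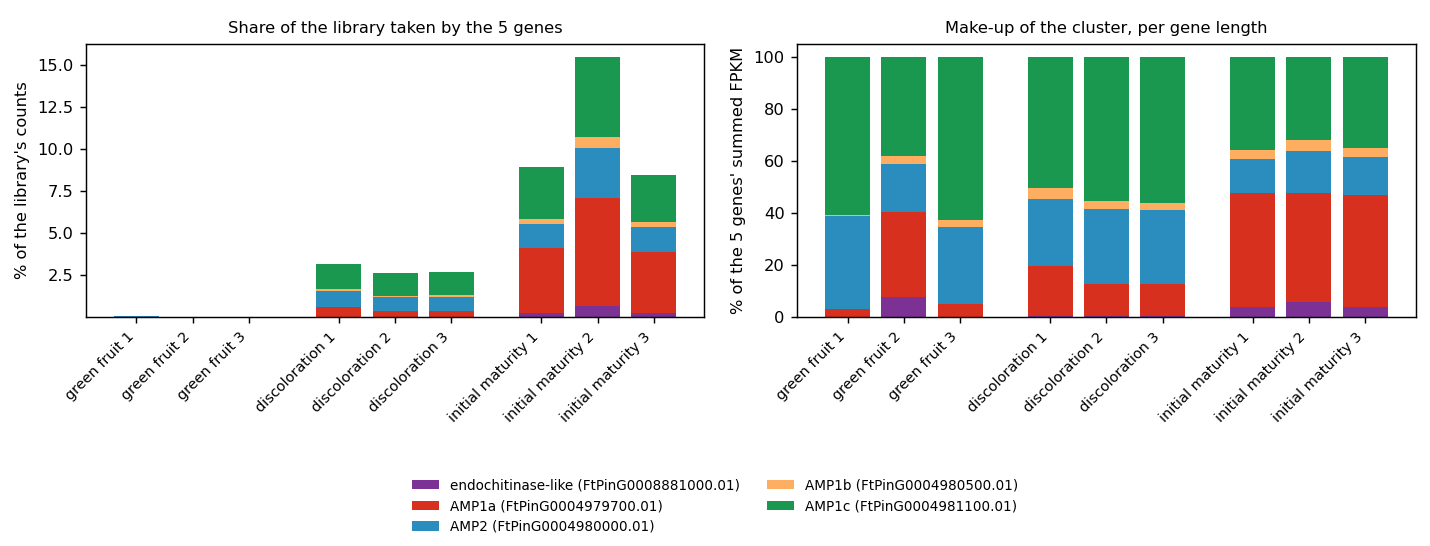
Left, the share of each library's counts (percent) that the 5 genes held, stacked by gene. Right, the make-up of the cluster in each library as the percent of the summed FPKM of the 5 genes. The share stood at 2.6 to 3.17% in the 3 discoloration libraries and at 8.48 to 15.5% in the 3 initial maturity libraries, where AMP1a took 41.9 to 43.6% of the summed FPKM.

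AMP1a became the most abundant transcript of the seed by FPKM. It had 11.3, 10.4 and 0.179 CPM (counts scaled to a common library size, with TMM factors) in green fruit libraries 1, 2 and 3, then 7130, 3547 and 3618 CPM at discoloration and 54716, 101983 and 52655 CPM at initial maturity. The lowest library at initial maturity was 7.38 times the highest at discoloration, so the stages lay far apart. At initial maturity it averaged 69785 ± 27904 CPM, against 4765 ± 2049 CPM at discoloration (SD, n = 3 each), which is 3.87 higher on the log2 scale (SE 1.23, adjusted p = 0.0352, edgeR's quasi-likelihood test with Benjamini-Hochberg adjustment over all 23631 genes tested). By FPKM, which is scaled to gene length and so allows genes to be compared, it was rank 1 of all genes in each of the 3 initial maturity libraries, against ranks 12, 23 and 23 at discoloration. The call did not stand when any 1 of the 6 discoloration and initial maturity libraries was left out, with adjusted p between 0.0595 and 0.129, while the log2 fold change stayed between 3.49 and 4.28.

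AMP1b was the least abundant of the peptide genes. It had 1.40, 0.898 and 0.102 CPM in green fruit, 1520, 885 and 879 CPM at discoloration and 4321, 10402 and 4426 CPM at initial maturity. The stages did not overlap, and the counts in green fruit were only 51, 44 and 4. The level at initial maturity was 6383 ± 3481 CPM, against 1095 ± 368 CPM at discoloration, which is 2.54 higher on the log2 scale (SE 0.73, adjusted p = 0.0233, edgeR). Without discoloration library 2 or 3 or initial maturity library 2 the adjusted p was 0.0952, 0.0957 and 0.0692.

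AMP1c and AMP2 were already abundant at discoloration, and their difference at initial maturity against discoloration did not pass the test. AMP1c had 214, 11.9 and 2.32 CPM in green fruit, 18114, 15200 and 15954 CPM at discoloration and 43423, 75171 and 41268 CPM at initial maturity. By FPKM its rank was 3 in all discoloration libraries and 2 in all initial maturity libraries. AMP2 had 154, 7.08 and 1.35 CPM in green fruit, 11577, 9705 and 9943 CPM at discoloration and 20020, 46893 and 21017 CPM at initial maturity. Its rank was 8 or 9 at discoloration and 3 or 6 at initial maturity. In green fruit library 1 both were already well expressed, at FPKM ranks 124 (AMP1c) and 273 (AMP2), while in green fruit libraries 2 and 3 the ranks were 3245 and 12880 for AMP1c and 6818 and 16778 for AMP2. For both genes all initial maturity libraries lay above all discoloration libraries. The log2 fold changes were 1.70 for AMP1c (SE 1.32, adjusted p = 0.336) and 1.49 for AMP2 (SE 1.32, adjusted p = 0.401), in edgeR's quasi-likelihood fit of all 9 libraries.

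The wide spread among green fruit libraries enters that error, because all stages share 1 estimate of it. Green fruit library 1 held 92.2 times the AMP1c level and 114 times the AMP2 level of green fruit library 3. Without green fruit library 1 the adjusted p was 0.0215 for AMP1c and 0.0428 for AMP2, at log2 fold changes of 1.70 and 1.49. With only the 6 discoloration and initial maturity libraries in the fit, the values were 0.00397 and 0.0137. Green fruit library 1 is also the green fruit library with the highest sum of embryo and endosperm markers and the lowest of hull and seed coat markers.

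The endochitinase-like gene came on latest. Its counts were 1, 84 and 0 in green fruit libraries 1, 2 and 3, and 691, 1058 and 1218 at discoloration. At initial maturity they reached 53629, 155927 and 52376. As CPM this was 0.0275, 1.71 and at most 0.0766 in green fruit, the last being the limit of 3 counts that a count of 0 allows, then 35.3, 47.0 and 56.9 at discoloration and 3416, 9852 and 3373 at initial maturity. It averaged 5547 ± 3728 CPM at initial maturity, against 46.4 ± 10.8 CPM at discoloration (SD, n = 3 each), which is 6.90 higher on the log2 scale (SE 1.35, adjusted p = 0.00462, edgeR). Its FPKM rank was 9 to 24 at initial maturity, against 467 to 770 at discoloration. This increase kept its direction and its call under each of the 20 alternative settings that gave it an adjusted p, with log2 fold changes of 6.03 to 7.24. DESeq2 gave it none.

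**Figure D2:**
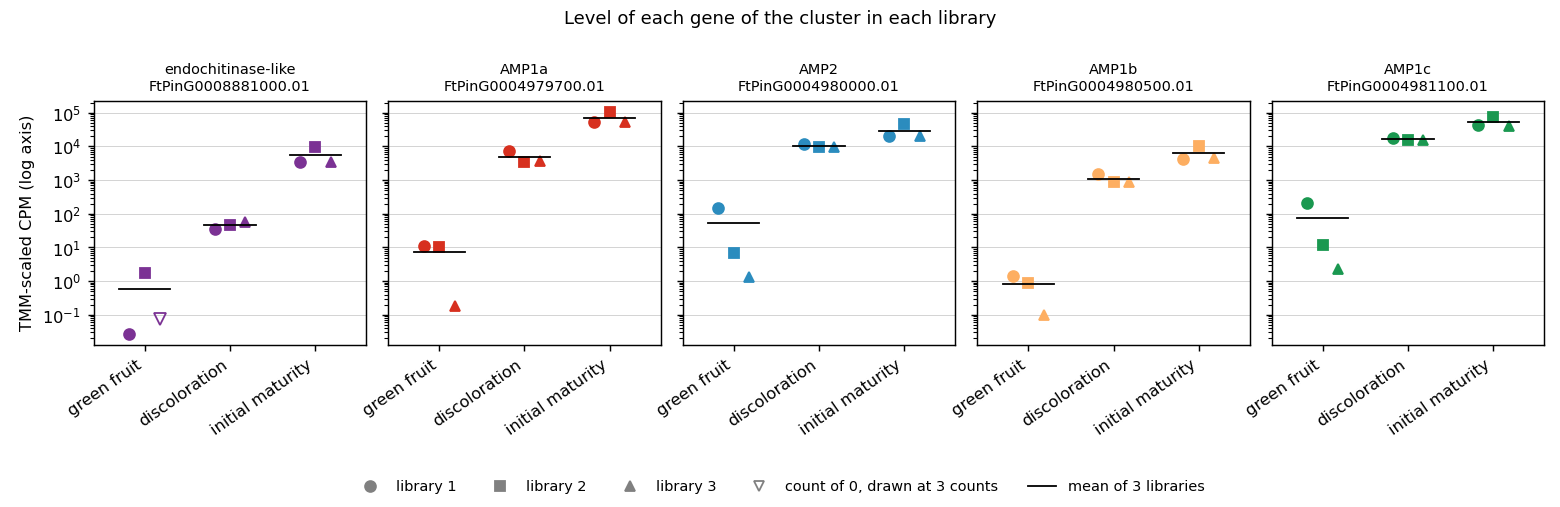
TMM-scaled CPM (log axis) of each gene in each of the 9 libraries, by stage from green fruit to initial maturity, with 1 symbol per library number and a line at the mean of the 3 libraries. In all 5 genes the 3 initial maturity libraries lie above the 3 discoloration libraries and these above green fruit, whose libraries spread most, from 1.35 to 154 CPM for AMP2.

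Of the 5 genes, 3 thus rose at initial maturity against discoloration, beside 16% of all genes tested that were called higher and 20.4% called lower. The initial maturity libraries lay above the discoloration libraries without overlap in 5 of 5, beside 27.9% of all genes. This comparison shares its discoloration libraries with the step that chose the genes. Fitted on the libraries of these 2 stages alone, 5 of 5 were called higher, beside 22.7% of all genes. Without the 3 libraries that stood apart 5 of 5 were called, beside 32.6%. That fit keeps only the 2 closely similar libraries of each stage, so its p-values measure only the small spread between them. With those 2 libraries of each stage added together instead, 1 of 5 was called, beside 1663 of all 24572 genes in either direction, 29% of them higher. All 5 passed the filter on low counts, AMP1a, AMP1b and the endochitinase-like gene only through the later stages. In the authors' deposited table, 4 of the 5 have an adjusted p under 0.05 for this pair of stages, with AMP2 at 0.0934. The share of all genes under 0.05 in that table was not counted. Its values come from the same libraries, so they are no separate support. The log2 ratios in the authors' deposited table, turned to the later over the earlier stage, run from 1.4963 for AMP2 to 6.91 for the endochitinase-like gene.

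**Figure D3:**
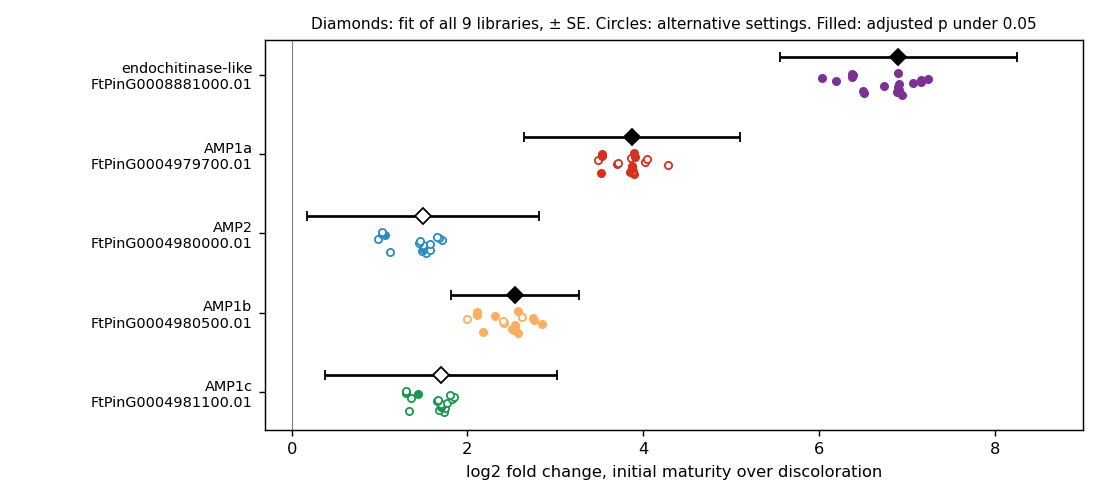
Log2 fold change of each gene, initial maturity over discoloration. Diamonds show the fit of all 9 libraries with its SE, small circles the alternative settings, and filled symbols an adjusted p under 0.05. Settings that gave a gene no adjusted p are not drawn (DESeq2, for 3 genes). No value drawn lies below 0, and those of the endochitinase-like gene, from 6.03 to 7.24, are all filled.

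Over the step that chose them, the fitted log2 differences of discoloration over green fruit were 10.41 for AMP1b, 9.35 for AMP1a, 7.75 for AMP1c, 7.59 for AMP2 and 6.25 for the endochitinase-like gene. No test is given for these. At discoloration the lowest library was at least 20.6 times the highest green fruit library in each gene (the endochitinase-like gene) and up to 627 times (AMP1b). Of all genes tested, 19.5% were called higher and 19.9% lower in that comparison, and 27.1% were higher without overlap. That balance depends on the scaling: with library totals in place of TMM, 17967 genes were called and 10.2% of them were higher, against 9326 called and 49.5% higher with TMM, and the median log2 change of all genes was -1.027, against -0.041. From initial maturity over green fruit the log2 differences were 9.08 for AMP2, 9.45 for AMP1c, 12.96 for AMP1b, 13.15 for the endochitinase-like gene and 13.22 for AMP1a. Both of these comparisons use the same green fruit libraries, and their size rests on levels near or under 1 CPM in some of them. Green fruit library 2 held more of all 5 genes than library 3, though these libraries were otherwise close to each other.

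The make-up of the cluster changed between the later stages. AMP1a gave 43.6%, 41.9% and 43.1% of the summed FPKM of the 5 genes at initial maturity, against 19.2%, 12.5% and 12.3% at discoloration. AMP1c gave 35.7%, 31.9% and 34.9%, against 50.4%, 55.4% and 56.0%, and AMP2 gave 13.4%, 16.1% and 14.4%, against 26.1%, 28.7% and 28.3%. The endochitinase-like gene gave 3.86 to 5.74%, against 0.135 to 0.274%. For these 4 genes the libraries of the stages did not overlap, while AMP1b kept a like part, 3.49 to 4.34% at initial maturity and 3.04 to 4.16% at discoloration. Initial maturity library 2, the highest of its stage in all 5 genes, gave each gene a part within a few percentage points of that in libraries 1 and 3.

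The order of the genes changed with it. At initial maturity AMP1a led with 111509 ± 37588 FPKM, and AMP1c followed with 88030 ± 25892 (SD, n = 3), the AMP1a value being the higher in each library but the ranges overlapping. AMP2 had 39044 ± 17821 FPKM, the endochitinase-like gene 12429 ± 7587 and AMP1b 10289 ± 4961, and this last pair overlapped. At discoloration AMP1c was the highest, with 34934 ± 1865 FPKM, followed by AMP2 with 17967 ± 1034, AMP1a with 9735 ± 3759, AMP1b with 2275 ± 666 and the endochitinase-like gene with 137 ± 35.9. No neighbours in that order overlapped.

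AMP2 and AMP1c, which lie on opposite strands with AMP1b between them, kept the most even ratio. AMP2 stood at 0.473 to 0.583 of the AMP1c FPKM in green fruit, at 0.506 to 0.519 at discoloration and at 0.374 to 0.506 at initial maturity. It was the only one of the 10 pairs in the cluster whose ratio overlapped between initial maturity and discoloration. The ratio of AMP1a to AMP1c varied from 0.0512 to 0.849 in green fruit, and was 0.220 to 0.381 at discoloration and 1.22 to 1.31 at initial maturity.

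Genes around the cluster were far less abundant. Between the first and the last of the 5 genes lie 2 other gene models, and 2 loci of the authors' own that had no counts. One of the models matches Rop guanine nucleotide exchange factor 1, an activator of small GTPases in Arabidopsis (FtPinG0004979600.01). It had 1.43, 1.00 and 0.781 FPKM in green fruit, 121, 112 and 110 at discoloration and 280, 179 and 266 at initial maturity. The log2 fold change was 7.69 at discoloration against green fruit (adjusted p = 5.15e-06, edgeR) and 1.42 at initial maturity against discoloration (adjusted p = 0.00413, edgeR). Unlike the 5 genes it was lowest, not highest, in initial maturity library 2. The other model (FtPinG0004980800.01), with no match, had 12.8 to 42.7 FPKM and was called in neither step (adjusted p = 0.544 at discoloration against green fruit and 0.522 at initial maturity against discoloration, edgeR).

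Counting the 5 nearest gene models on either side as well, 6 of 14 genes that are no part of the cluster passed the filter. Of these, 1 rose and 3 fell at discoloration against green fruit, and 2 rose and 1 fell at initial maturity against discoloration. The highest FPKM among them in any library was the 280 of the Rop exchange factor match. Just before the endochitinase-like gene lies a model that matches pro-hevein (FtPinG0008880800.01, 45181346 to 45181576), the precursor of the chitin-binding peptide of rubber tree latex. It had counts of 0 in all green fruit and discoloration libraries and of 10, 80 and 4 at initial maturity, which left it under the filter.

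**Figure D4:**
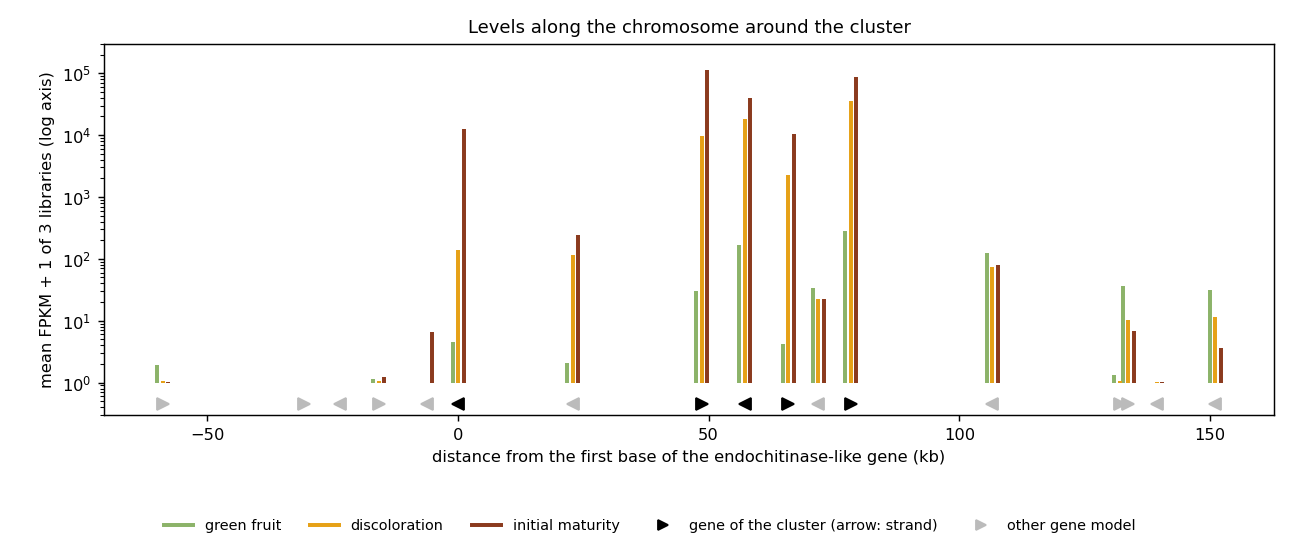
Mean FPKM plus 1 (log axis) of the 3 libraries of each stage for the 5 genes of the cluster and the gene models between and around them, against the distance in kb from the lowest base of the endochitinase-like gene. Arrowheads give the strand, black for the cluster. The 5 genes stand at means of 10289 to 111509 FPKM at initial maturity, and no other model on the map passed 280 in any library.

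No SNP or InDel site of the deposited variant tables fell inside any of the 5 genes. Those tables also cover samples outside this series, and sites were counted by position whichever samples they vary in. The nearest site was 1 base from AMP2, 21 from AMP1a, 78 from AMP1b, 545 from the endochitinase-like gene and 12552 from AMP1c. Among 213 gene models of at most 500 bases with at least 10000 counts, 71 (33.3%) held a site, so a lack of sites in a gene of this size was common.

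Genes whose levels most resembled each member were sought by Pearson's r over the 9 libraries on log2(CPM + 1). The libraries fall into 3 stages, so r mostly measures the order and spacing of the stages, not the size of the change, and 781 to 1192 genes had an r over 0.95 to a given member. No p is given. Among the 3 likest to AMP1a was a defensin-like protein AX2 match (FtPinG0006697700.01, r = 0.992), another cysteine-rich peptide of plant defence. Its FPKM was 5.29, 2.02 and 0.157 in green fruit, 684, 475 and 504 at discoloration and 3210, 6175 and 3367 at initial maturity, so it was high in initial maturity library 2 as AMP1a was. The likest to both AMP2 (r = 0.998) and AMP1c (r = 0.997) matched the ethylene signalling kinase CTR1 (FtPinG0002130400.01), at only 88.9 CPM at initial maturity and 58.1 CPM at discoloration. A gene without a match (FtPinG0002722100.01), also on chromosome 6, had an r of 0.997 to AMP1c and averaged 41.96 CPM in green fruit, 4232 CPM at discoloration and 9406 CPM at initial maturity. The likest to AMP1b matched a chloroplast ribosome-binding factor, PSRP1 (FtPinG0007250500.01, r over 0.999), and to the endochitinase-like gene an F-box protein (FtPinG0007726300.01, r = 0.997). The likeness of this last gene holds only on the TMM scale, where it averaged 16.9 CPM in green fruit, 21.0 CPM at discoloration and 28.4 CPM at initial maturity. Its FPKM was 18.3 to 22.9 in green fruit, 12.4 to 13.9 at discoloration and 13.7 to 14.8 at initial maturity. The others with a match were a bHLH7 transcription factor for AMP1a (FtPinG0007309900.01, r = 0.992), an F-box/LRR-repeat protein 14 for AMP2 (FtPinG0002868600.01, r = 0.997) and a heparanase-like protein 1 for AMP1b (FtPinG0009627700.01, r = 0.999). The remaining 6 had no match. The F-box/LRR-repeat match was higher at initial maturity than at discoloration on the TMM scale only, with means of 84.8 and 75.3 CPM. Its FPKM was 28.4 to 29.8 at initial maturity and 32.2 to 33.75 at discoloration.

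Other defence genes were taken from 12 lists of Swiss-Prot names, without the 5 genes. Of their 187 genes tested, 31 (16.6%) were called higher and 43 (23.0%) lower at initial maturity against discoloration, near the 16% and 20.4% of all genes. At discoloration against green fruit 60 (32.1%) were called higher and 52 (27.8%) lower, beside 19.5% and 19.9%. With library totals in place of TMM the counts were 23 higher and 61 lower at initial maturity against discoloration, and 41 higher and 96 lower at discoloration against green fruit, so the direction of the second of these turned with the scaling. Over all genes, library totals gave 9079 calls at initial maturity against discoloration, 20.8% of them higher. At discoloration against green fruit they gave 17967 calls, 10.2% of them higher. With TMM the median log2 change of the defence genes was -0.22 at initial maturity against discoloration, beside -0.022 over all genes. At discoloration against green fruit it was -0.02, beside -0.041. The highest mean of any of them at initial maturity was 30967 FPKM, of a vicilin-like antimicrobial peptides 2-1 match (FtPinG0001724500.01, chromosome 3), below AMP2 and above AMP1b.

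Of 16 chitinases tested, 10 rose and 2 fell at discoloration against green fruit (median log2 change 1.68), and 3 rose and 4 fell at initial maturity against discoloration (median -0.56). At the first of these comparisons 6 rose without green fruit library 2, without green fruit library 3 or with the most similar pairs added together, and with library totals only 6 rose and 4 fell. A chitinase 4 match (FtPinG0004181100.01) on chromosome 3 rose at both steps, with log2 changes of 3.86 and then 4.95 (adjusted p = 0.00078 and 0.000134, edgeR). A chitinase 5 match on the same chromosome (FtPinG0004180700.01) rose by 6.68 and then 4.32 (adjusted p = 0.00183 and 0.00694, edgeR). Chitin-sensing LysM receptor genes (11 tested) gave 5 higher and 1 lower at discoloration against green fruit, and 2 higher and 0 lower at initial maturity against discoloration. With library totals only these became 0 higher and 5 lower, and 0 higher and 3 lower, so the direction turned. Over all genes that scaling left 10.2% and 20.8% of the calls higher in the 2 comparisons.

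Among the peptide lists, the 3 vicilin-like antimicrobial peptide genes, whose products are storage globulin relatives cut into small peptides in macadamia, all rose at discoloration against green fruit (log2 changes 1.84 to 3.56). With library totals only 2 were called, and with the most similar pair of each stage added together 0. None was called at initial maturity against discoloration (adjusted p = 0.421 to 0.971, edgeR); they are also counted among the embryo and endosperm markers above. Of 14 defensins and thionins, 6 rose and 5 fell at discoloration against green fruit (6 and 7 with library totals only), and 2 rose and 3 fell at initial maturity against discoloration. The 2 that rose there were the AX2 match, with a log2 change of 3.30 (adjusted p = 0.008, edgeR), and a defensin-like protein 5 match (FtPinG0003898100.01), with 4.13 (adjusted p = 0.000753, edgeR). Snakin and gibberellin-regulated peptides (12 tested) gave 4 higher and 4 lower (3 and 6 with library totals only), then 1 higher and 4 lower. Lipid-transfer proteins (15 tested) gave 5 higher and 4 lower (3 and 8 with library totals only), then 4 higher and 7 lower.

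The remaining lists were classes of larger proteins, taken by name, and not all of their members need act in defence. Beta-glucanases, which cut the other main polymer of fungal walls, gave 8 higher and 16 lower of 49 at discoloration against green fruit, and 6 higher and 12 lower at initial maturity against discoloration. With library totals only the counts were 5 and 35, and 3 and 19. PR-10 and major latex proteins gave 5 higher and 10 lower of 24 (5 and 15 with library totals only), then 4 higher and 10 lower (4 and 13). Thaumatin-like proteins gave 7 higher and 6 lower of 25 (5 and 11 with library totals only), then 5 higher and 2 lower (3 and 3). Polygalacturonase inhibitors gave 6 higher and 2 lower of 12 (5 and 3 with library totals only), then 3 higher and 1 lower (3 and 3). PR-1 proteins gave 1 higher and 2 lower of 6, then 1 higher and 0 lower. No gene matched the PR-4 barwin list. Leaving out 1 library, or the 3 that stood apart, moved many of these small counts by more than 1.5 times. One example is the thaumatin-like count higher at initial maturity against discoloration, with 5 in the fit of all libraries, 3 to 11 with 1 library left out and 13 without the 3.

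For 5 of the lists the gene with the highest mean FPKM over all 9 libraries is given, a choice that can fall on a gene high at any stage and says nothing of the rest of its list. A putative defensin-like protein 9 match (FtPinG0006808000.01) averaged 4136 ± 3256 FPKM in green fruit, 12249 ± 2536 in discoloration libraries and 9783 ± 3164 in those of initial maturity (SD, n = 3). The top snakin, a snakin-1 match (FtPinG0001037700.01), averaged 784 ± 206, 3782 ± 383 and 4617 ± 278 FPKM at the same stages, with a log2 change of 3.22 at discoloration against green fruit (adjusted p = 0.000311, edgeR) and of 0.64 at initial maturity against discoloration (adjusted p = 0.174). A non-specific lipid-transfer protein 1 match (FtPinG0001022300.01) averaged 3663 ± 2587 FPKM in green fruit, 335 ± 53.2 in discoloration and 64.4 ± 12.6 in initial maturity libraries, and fell at both steps (adjusted p = 0.00982 and 0.0217, edgeR). A match to an MLP-like protein, a major latex protein relative (FtPinG0000450900.01), averaged 3362 ± 1801, 870 ± 97.6 and 160 ± 45.1 FPKM and fell at initial maturity against discoloration (adjusted p = 0.0057, edgeR). A chitinase-like protein 1 match (FtPinG0000874100.01) averaged 1015 ± 622, 178 ± 4.4 and 68.6 ± 9.93 FPKM and fell at discoloration against green fruit (adjusted p = 0.0246, edgeR).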

How the data were processed

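The authors deposited whole-number read counts per gene and FPKM values for 31839 gene models and 2092 loci of their own, per the file headers. Bowtie2 2.0.6 and TopHat2 2.0.12 are named in the submitters' processing notes. Counting program, build and annotation were not given in the sources used. FPKM values as the authors made them carry no correction for composition, so a few very abundant genes lower the rest. The authors' deposited gene table also holds log2 ratios of the earlier over the later stage, turned here, with adjusted p-values, and Swiss-Prot matches, which give the gene names used.

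The test was edgeR's quasi-likelihood F test (edgeR 4.0.16, R 4.3.3; limma 3.58.1; TMM, filterByExpr with minimum count 10, glmQLFit and glmQLFTest), with all 9 libraries in 1 fit and no replicate term. The 23631 genes left were adjusted together (Benjamini-Hochberg, threshold 0.05). An SE is the absolute log2 fold change over the root of F. The fit was first tested on simulated counts. Wilson intervals (95%) and the floor of 3 counts cover counting error only. DESeq2 1.42.0, limma on log2 FPKM and other settings were alternatives.

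Genes were named by rule: the 5 cluster genes, the gene models between them and 5 on each side, the 3 likest to each by Pearson's r, and from each defence list its counts and its gene with the highest mean FPKM (given for some). Other list genes named were chosen after their values were seen. The members and lists were chosen with earlier results of these data known. The word thionin was matched whole, since the pattern otherwise took in 80 names in place of 23. The variant tables each have 9 columns that match no sample here. Every row of these tables counted as a site by its position, and the calls of single samples were not read. Some sites may therefore vary only in those 9 columns. Whether library numbers mark plants is unstated, so the fit took the libraries as unpaired.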

Additional observations from a re-analysis of the deposited data

How the results depend on the processing

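The count of cluster genes called higher at initial maturity against discoloration was 3, and it was 5 with only the libraries of these 2 stages or without the 3 libraries that stand apart. It was 1 with the most similar pair of each stage added together or with limma on log2(FPKM + 0.1). That limma setting called 9129 of all 23631 genes, 20.8% of them higher. Leaving out 1 library at a time gave 1 to 5 cluster genes: 5 without green fruit library 1, and 1 without discoloration library 2, discoloration library 3 or initial maturity library 2. Over all genes, 12190 of 24185 were called without green fruit library 1, 47.2% of them higher. The fit of all libraries called 8608 of 23631, 43.9% of them higher. Without discoloration library 2, discoloration library 3 or initial maturity library 2 the calls were 5328, 5325 and 7009, with 37.8%, 37.4% and 43% higher. DESeq2 called 2 cluster genes and gave no adjusted p for the other 3. Over all genes it called 9916, 47.2% of them higher. No gene of the cluster changed direction under any setting that gave it an adjusted p. The order of stages by mean level also held in 5 of 5 under each scaling and each library left out. Since the stages did not overlap in any of the 5, leaving out a library could not change that order. Its step from green fruit to discoloration is the one that chose the genes, so the order is a description only. With the 4 peptide counts added as 1 gene, the log2 fold change was 2.28. Over all settings the adjusted p ranged from 3.77e-11 to 0.144 for AMP1a, 5.46e-06 to 0.647 for AMP2, 2.76e-18 to 0.105 for AMP1b, 7.01e-07 to 0.512 for AMP1c and 1.57e-21 to 0.0393 for the endochitinase-like gene. The lowest value of each gene came from the fit without the 3 libraries that stand apart, which keeps only closely similar libraries.

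Over all genes, 8608 differed between initial maturity and discoloration. This was 1663 with the most similar pairs added, 16195 without the 3 libraries apart, and 5325 to 12190 with 1 library left out. Between discoloration and green fruit 9326 differed, with 2877 and 17730 under the first 2 of these settings and 6735 to 12436 with 1 library left out. It was 17967 with library totals only, and 17988, 17763 and 16396 with limma on log2(FPKM + 1), on log2(FPKM + 0.1) and on genes with a mean FPKM of at least 1. With library totals only, 20.8% of the calls at initial maturity against discoloration were higher, against 43.9% with TMM, and the median of all genes moved to -0.37. At discoloration against green fruit the same setting gave 10.2% higher, against 49.5%, and a median of -1.027, against -0.041. The cause was not tested. With the replicate number as a replicate block, 2 cluster genes were called (AMP1a, adjusted p = 0.0578), and 7848 and 8485 genes in the 2 comparisons. Libraries of the same number did not deviate together (r from -0.15 to 0.19), and whether a number marks a plant is unstated, so whether the numbers pair the libraries is unknown. Leaving the 5 genes out before scaling, a setting chosen after seeing the data, gave 8610 and 9310. In green fruit, single-digit counts in some libraries limit what the levels of AMP1a, AMP1b and the endochitinase-like gene can show.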

Other observations

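Green fruit libraries 2 and 3 were close to each other over most genes, but not in the genes of this cluster. Of 21449 genes with at least 30 counts in library 2, 10 were more than 5-fold higher there than in library 3 by CPM, and 5 of those 10 were the cluster's 5 genes. AMP1a had 509 counts in library 2 and 7 in library 3, a 58.1-fold difference, and the endochitinase-like gene had 84 and 0, at least 22.4-fold with the 0 set to 3 counts. AMP1b, AMP2 and AMP1c were 8.79, 5.24 and 5.11 times higher in library 2.

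At initial maturity the cluster's summed FPKM was 41.9 to 43.6% AMP1a, 31.9 to 35.7% AMP1c, 13.4 to 16.1% AMP2, 3.49 to 4.34% AMP1b and 3.86 to 5.74% endochitinase-like gene. In green fruit library 2 it was 32.6% AMP1a, 38.4% AMP1c, 18.6% AMP2, 2.86% AMP1b and 7.62% endochitinase-like gene. In green fruit libraries 1 and 3 AMP1a made up 3.12% and 4.69% and the endochitinase-like gene 0.0108% and 0. The counts in green fruit library 2 came to 0.0267% (AMP1b) to 0.0539% (endochitinase-like gene) of those in initial maturity library 2. Among the 53 genes with at least 50000 counts in initial maturity library 2, the 5 of the cluster had the lowest such percentages, the next being 0.0635% and the median of the other 48 being 9.8%. The 5 genes were chosen with their lower level in green fruit than at discoloration known, which favours low percentages here. Their place in this order is therefore a description only. These values were sought after the spread in green fruit was seen, and no test was made on them.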
